A study of Mus musculus with 28 samples.

Results

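The genes described here are 9 immediate early genes that neurons induce when they are active, *Fos*, *Fosb*, *Junb*, *Egr1*, *Egr2*, *Nr4a1*, *Arc*, *Dusp1* and *Ier2*, together with *Btg2*. They were taken by symbol from the GENCODE M21 annotation. The 9 were listed as known activity-induced genes, whereas *Btg2* was added because it was higher in mice of the Acute Drinking group in these same data, so its differences between the drinking groups are given as descriptions, without a test. All 10 were among the 49477 genes that both count tables share and among the 16266 that passed the filter on low counts.

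RNA was sequenced from bilateral amygdala micropunches that held the central and basolateral nuclei of 28 adult female mice, each an individually housed C57BL/6J animal that was 7 weeks old on arrival. All shared strain, sex and housing and drank from 2 tubes over 28 days, and tissue was taken on day 29, 2 h after lights on, under brief isoflurane. The Water group (10 mice) never had ethanol, the Acute Drinking group (9 mice) had 20% ethanol once, on day 28, and the Chronic Drinking group (9 mice) had 20% ethanol every other day, with the ethanol tube left in place until collection in both drinking groups. Every group was present in both batches of mice, with 4 Water, 4 Acute and 3 Chronic mice in the first and 6, 5 and 6 in the second. Mice are named by group and by the number in their label, 33 to 43 in the first batch and 1 to 6 in the second. Total counts ranged from 20004380 to 22569562 per mouse, and the neuron, astrocyte, oligodendrocyte and both amygdala marker lists were detected in every group. No gene of these lists was at 0 over the 28 mice together.

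Immediate early genes are transcribed within minutes of synaptic input or growth factor signaling, without new protein synthesis, and their messenger RNAs decay quickly. Calcium and kinase signaling reach them through transcription factors already bound at their promoters, among them CREB at the cAMP response element (CRE) and serum response factor at the CArG box. Their products are in turn transcription factors (the FOS and JUN proteins of AP-1, the EGR zinc fingers and the nuclear receptor NR4A1), effectors such as ARC and feedback inhibitors such as DUSP1, and in the amygdala they are widely used to mark neurons that were recently active. BTG2 is an antiproliferative protein that recruits the CCR4-NOT deadenylase to messenger RNAs, and it too is induced by growth factors and activity.

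Promoter sequences are shown for the elements through which activity is known to reach such genes, and their relation to the levels measured here was not tested. Promoters of 7 of the 10 genes were used, taken by symbol from a RefSeq table (GRCm38.p6). Each had 300 bases, 250 before and 50 after the start site. The other genes were left out of the counts below, and the 7 do not measure what the table covers. The 250 bases before the start site are printed 5′ to 3′ on the gene's strand for *Btg2*, *Dusp1*, *Fos*, *Nr4a1* and an *Egr2* start site whose promoter held both the CRE core and the CArG box, as 3 of its 5 promoters in the table did. Capitals mark the CRE (TGACGTCA), its 5-base core (TGACG or, on the other strand, CGTCA), the CArG box and the TATA box (TATAAA).
*Btg2*, chr1:134079156-134079405, minus strand: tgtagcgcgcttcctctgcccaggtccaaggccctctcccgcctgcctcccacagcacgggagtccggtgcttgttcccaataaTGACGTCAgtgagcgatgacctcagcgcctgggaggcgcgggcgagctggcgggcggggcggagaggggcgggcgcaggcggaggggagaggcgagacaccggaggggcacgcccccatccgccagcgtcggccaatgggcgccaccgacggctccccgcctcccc
*Dusp1*, chr17:26508473-26508722, minus strand: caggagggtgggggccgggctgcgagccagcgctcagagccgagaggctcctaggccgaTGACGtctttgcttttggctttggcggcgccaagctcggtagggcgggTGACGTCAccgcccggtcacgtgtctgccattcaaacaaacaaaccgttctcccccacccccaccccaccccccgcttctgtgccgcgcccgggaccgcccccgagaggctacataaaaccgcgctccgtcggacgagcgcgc
*Fos*, chr12:85473640-85473889, plus strand: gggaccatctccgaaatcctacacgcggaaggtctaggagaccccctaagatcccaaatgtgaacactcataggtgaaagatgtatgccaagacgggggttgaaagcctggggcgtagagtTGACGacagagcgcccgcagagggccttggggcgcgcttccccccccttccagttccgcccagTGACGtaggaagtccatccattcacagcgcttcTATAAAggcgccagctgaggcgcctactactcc
*Egr2*, chr10:67537619-67537868, plus strand: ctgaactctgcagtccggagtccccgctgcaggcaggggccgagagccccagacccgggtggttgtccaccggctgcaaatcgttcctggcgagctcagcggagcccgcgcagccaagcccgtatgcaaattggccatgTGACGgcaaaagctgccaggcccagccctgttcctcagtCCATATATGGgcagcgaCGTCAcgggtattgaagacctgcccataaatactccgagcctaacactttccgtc
*Nr4a1*, chr15:101266596-101266845, plus strand: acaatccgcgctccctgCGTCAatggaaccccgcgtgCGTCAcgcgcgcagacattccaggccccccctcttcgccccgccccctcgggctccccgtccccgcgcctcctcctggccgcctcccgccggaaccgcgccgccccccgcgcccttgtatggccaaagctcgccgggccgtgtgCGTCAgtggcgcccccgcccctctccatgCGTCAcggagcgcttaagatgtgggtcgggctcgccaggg

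The full CRE stood 166 bases before the start site of *Btg2* and 143 bases before that of *Dusp1*, which made 2 of 7 genes, and 1.79% of the 32851 promoters in the table held one. The core, which also counts within every full CRE, was in at least 1 promoter of 7 of 7 genes and in 20.8% of all promoters. The CArG box was in 1 of 7 genes, *Egr2* (1.63% of all promoters), and the TATA box in 2 of 7, *Fos* and *Junb* (13.6%). The EGR motif (GCGNGGGCG) was in 3 of 7, *Btg2*, *Fosb* and *Nr4a1* (5.55%), and the AP-1 motif (TGANTCA) in 0 of 7 (7.81%). All motifs were searched on both strands, and a match describes these letters in this window only. A gene was counted when any of its promoters held the motif, whereas the percentages are per promoter. The 2 are therefore not on the same unit, and *Egr2* had 5 promoters where each other gene had 1.

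All 10 genes were measured well above the filter of a mean of 10 counts. Mean counts per mouse were lowest for *Ier2* at 86.2 (65 to 120 over the 28 mice) and *Egr2* at 182 (80 to 312), and highest for *Egr1* at 4694 (3478 to 5951). Levels of different genes were compared as CPM per kilobase of exon. CPM here are counts scaled to the library total, with TMM scaling and the batch difference removed. On this scale *Egr1* stood highest in Water mice at 50.9 ± 6.88 (SD, n = 10). *Junb* at 35.0 ± 3.90 and *Arc* at 33.5 ± 4.65 followed and did not differ beyond their spread, and *Nr4a1* came next at 22.3 ± 2.49. *Fos* (9.75 ± 0.906), *Dusp1* (7.76 ± 1.23), *Btg2* (6.55 ± 1.13) and *Fosb* (4.78 ± 0.584) lay lower, and the SD ranges of *Dusp1* and *Btg2* overlapped. *Ier2* (2.85 ± 0.518) and *Egr2* (2.62 ± 0.623) were lowest and indistinguishable. In bulk tissue, fewer active cells and less RNA per cell cannot be told apart.

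The comparison of Acute with Water mice asked whether a single ethanol access was followed by a change of these genes on the next morning. In edgeR's quasi-likelihood fit over all 28 mice with batch as a covariate, 0 of the 9 immediate early genes other than *Btg2* passed an adjusted p of 0.05, as did 0 of all 16266 genes (0%). At an unadjusted p below 0.05 it was 0 of the 9, against 9.52% of all genes. 7 of the 9 had a log2 fold change above 0, with a median of 0.03, and 50.6% of all genes did, with a median of 0.00. Because the 9 moved together between mice, as described below, their directions are not separate observations. DESeq2, limma-voom and ComBat-seq with DESeq2 each also called 0 of the 9, although DESeq2 with batch as a covariate gave no adjusted p to *Egr2* and *Ier2*. The values below are CPM with TMM scaling and the batch difference removed, given as the lowest, the median and the highest mouse, and counts of mice above the Water mean refer to the mean of log2 CPM.

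Among the AP-1 genes, *Fos* was at 20.2, 23.0 and 26.3 CPM in Water mice, 17.3, 27.1 and 31.8 in Acute mice and 17.7, 24.9 and 30.7 in Chronic mice. The groups overlapped, although 7 of 9 Acute mice were above the Water mean, and both drinking groups reached lower and higher than any Water mouse. The log2 fold change of *Fos* in Acute mice was 0.19 ± 0.10 (SE, edgeR adjusted p = 0.545). *Fosb*, whose truncated product accumulates with repeated drug exposure in other brain regions, was at 24.3, 29.2 and 34.5 CPM in Water mice, 19.5, 30.7 and 33.8 in Acute mice and 21.4, 28.9 and 34.3 in Chronic mice. The groups overlapped, with Acute 33, Chronic 3 and Chronic 1 below every Water mouse, and the log2 fold change was -0.02 ± 0.09 in Acute mice (edgeR adjusted p = 0.962). *Junb*, a JUN partner of the FOS proteins, was at 65.1, 78.3 and 94.5 CPM in Water mice, 59.0, 80.9 and 99.9 in Acute mice and 63.3, 82.4 and 101 in Chronic mice, with overlapping groups. Its log2 fold change in Acute mice was 0.03 ± 0.09 (edgeR adjusted p = 0.941). An exon of *Junb* overlaps the span of *Prdx2*, a gene on the opposite strand. Whether the counting used strand is not given in the sources used here.

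Of the EGR factors, *Egr1* was at 181, 230 and 271 CPM in Water mice, 158, 228 and 265 in Acute mice and 174, 220 and 295 in Chronic mice. The groups covered nearly the same range, with Acute 33 lowest and Chronic 4 highest, and the log2 fold change in Acute mice was -0.03 ± 0.10 (edgeR adjusted p = 0.953). *Egr2* was at 5.82, 8.98 and 12.4 CPM in Water mice, 4.12, 9.29 and 11.7 in Acute mice and 4.67, 9.55 and 12.1 in Chronic mice. This was the most variable of the genes, with more than a doubling between the lowest and highest mouse of every group, and its log2 fold change in Acute mice was 0.04 ± 0.17 (edgeR adjusted p = 0.966).

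*Nr4a1*, the orphan nuclear receptor, was at 64.8, 81.0 and 91.3 CPM in Water mice, 54.1, 83.0 and 92.6 in Acute mice and 54.1, 73.5 and 89.1 in Chronic mice. The order of the medians was Acute, Water and Chronic, and no neighbors in that order differed beyond their spread. The log2 fold change was 0.03 ± 0.09 in Acute mice (edgeR adjusted p = 0.943). *Arc*, the capsid-like protein that drives endocytosis of AMPA receptors at synapses, was at 79.3, 103 and 129 CPM in Water mice, 70.6, 114 and 136 in Acute mice and 69.4, 102 and 132 in Chronic mice. 8 of 9 Acute mice were above the Water mean and Acute 33 was far below it, and the log2 fold change was 0.14 ± 0.11 (edgeR adjusted p = 0.717).

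*Dusp1*, the phosphatase that switches off MAP kinases, was at 19.2, 25.2 and 31.8 CPM in Water mice, 20.98, 29.2 and 37.6 in Acute mice and 18.9, 26.2 and 31.2 in Chronic mice. Its log2 fold change in Acute mice was 0.18 ± 0.10 (edgeR adjusted p = 0.590), with 7 of 9 mice above the Water mean and overlapping groups. In the M21 annotation its span overlaps 4 other genes, among them *Ergic1* on the opposite strand. *Ier2*, a small nuclear regulator, was at 3.31, 4.20 and 5.87 CPM in Water mice, 3.53, 4.31 and 5.66 in Acute mice and 3.30, 3.90 and 4.85 in Chronic mice. Acute and Water mice covered the same range (log2 fold change 0.03 ± 0.11, edgeR adjusted p = 0.962), and the highest Chronic mouse stayed below the highest mouse of the other groups.

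**Figure D1:**
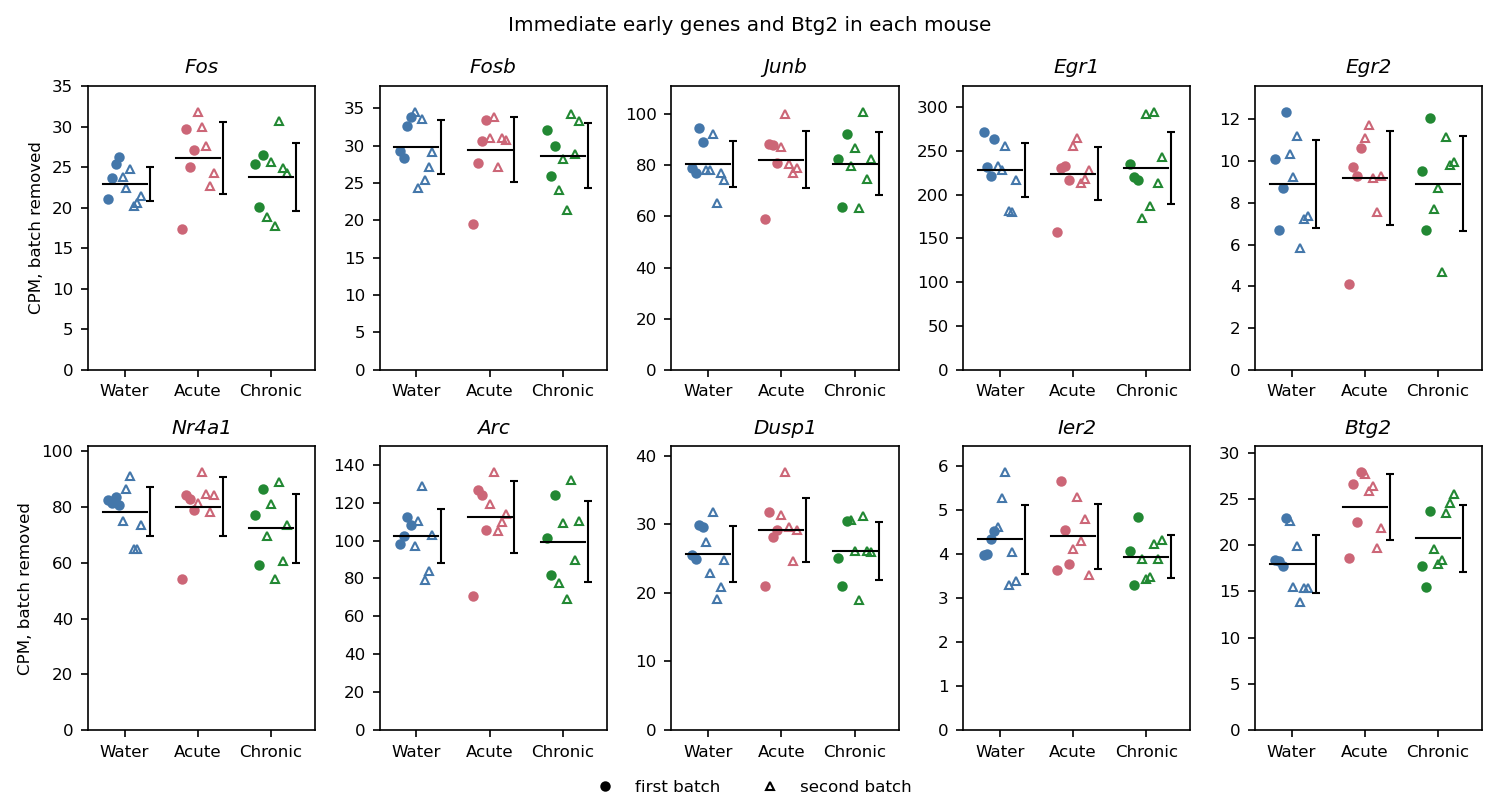
Level of each gene in each of the 28 mice, in CPM with TMM scaling and the batch difference removed (y axis from 0), by drinking group (x axis), with filled circles for the first batch and open triangles for the second, a line at the group mean and a bar of 1 SD. The 3 groups overlap for every gene, *Btg2* is above the Water mean in 9 of 9 Acute mice, and 1 Acute mouse is lowest of its group for most genes.

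*Btg2* was at 13.8, 18.0 and 22.9 CPM in Water mice, 18.6, 25.9 and 27.9 in Acute mice and 15.4, 19.6 and 25.5 in Chronic mice. All 9 Acute mice were above the Water mean, while the lower Acute mice still fell within the Water range. The contrast that chose *Btg2* gave it a log2 fold change of 0.42 ± 0.11 (SE), or 34.1% higher, and the next among the 10 genes were *Fos* and *Dusp1* at 0.19 and 0.18. Because the gene was picked for this value, no test is given. Within batches, the difference of means on the log2 scale was 0.30 in the first (3 of 4 Acute mice above the Water mean) and 0.52 in the second (5 of 5). When the mean of the 9 other genes was added to the fit as a covariate, the log2 fold change of *Btg2* was 0.38 ± 0.08 in Acute mice. Central amygdala markers (*Prkcd*, *Sst*, *Crh*, *Tac2* and *Nts*) also stood higher in Acute than in Water mice for 5 of 5 genes, with a median log2 fold change of 0.27, and 0 of 5 passed the test. Their summed level was 295 to 376 CPM in Water mice, 339 to 400.3 in Acute mice and 292 to 395 in Chronic mice, and their part in the difference of *Btg2* was not tested. The medians of the other 11 marker lists lay between -0.06 and 0.08 in this comparison.

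The comparison of Chronic with Water mice asked the same of repeated access. 0 of the 9 genes passed the test, as did 3 of 16266 genes overall (0.0184%), and 0 of the 9 had an unadjusted p below 0.05, against 10.5% of all genes. 5 of the 9 had a log2 fold change above 0, with a median of 0.00, and 51% of all genes did. The values ran from -0.14 ± 0.11 for *Ier2*, with 2 of 9 Chronic mice above the Water mean (1 of 9 against the mean of CPM), and -0.12 ± 0.09 for *Nr4a1*, with 3 of 9, to 0.05 ± 0.10 for *Fos*, with 6 of 9 (SE, edgeR adjusted p from 0.684 to 0.997). *Btg2* stood at 0.20 ± 0.11 in Chronic mice, described without a test because it shares the Water mice, with 7 of 9 mice above the Water mean (6 of 9 against the mean of CPM). It was 0.35 in the second batch, with 6 of 6 Chronic mice above the Water mean, and -0.04 in the first, with 1 of 3. With the mean of the 9 other genes as a covariate it was 0.23 ± 0.08. Central amygdala markers stood higher in Chronic than in Water mice for 5 of 5 genes (median log2 fold change 0.11, 0 of 5 passed). Of the 5 endothelial markers, 1 passed, *Klf2*, a transcription factor gene, at 0.54 ± 0.07 (9 of 9 mice above the Water mean, edgeR adjusted p = 6.51e-05). Striatum markers were lower in Chronic than in Water mice for 5 of 5 genes (median log2 fold change -0.32, 0 of 5 passed), with summed levels of 224 to 835 CPM in Water mice and 254 to 652 in Chronic mice. Choroid plexus markers were below 0 for 4 of 4 genes (median -0.13, 0 of 4 passed), with summed levels of 24.4 to 3948 CPM in Water mice and 12.3 to 4238 in Chronic mice. The medians of the other 9 marker lists lay between -0.04 and 0.11. The part of these markers in the values of the 10 genes was not tested.

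**Figure D2:**
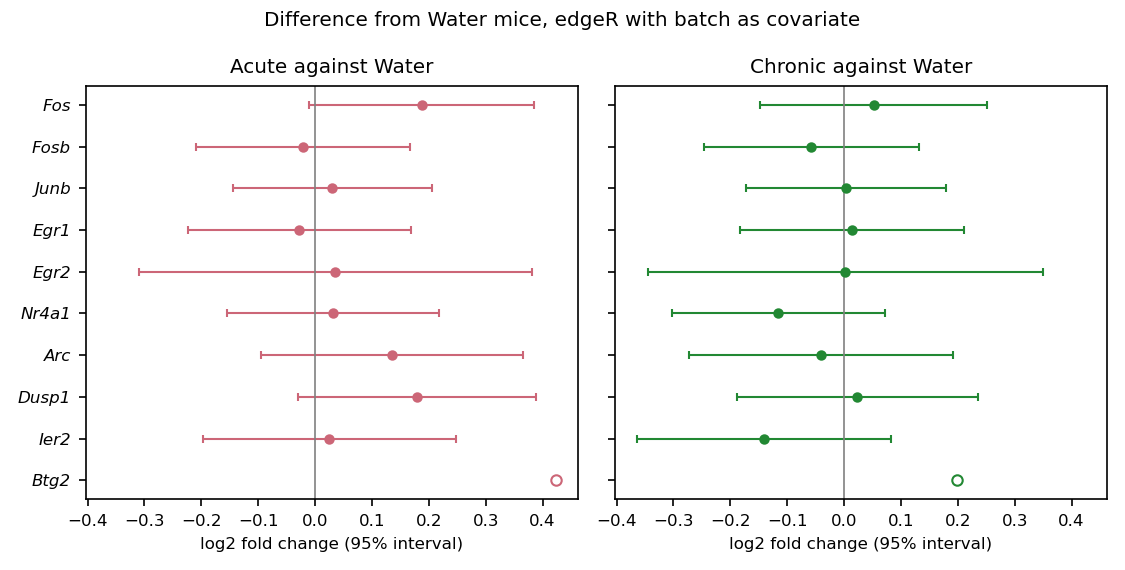
Log2 fold change of each gene in Acute mice (left) and Chronic mice (right) relative to Water mice, from edgeR with batch as a covariate, with 95% intervals for the 9 tested genes and an open circle without an interval for *Btg2*, which was chosen on the Acute contrast. All 9 intervals include 0 in both panels, and *Btg2* lies at 0.42 and 0.20. Both panels use the same 10 Water mice.

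Chronic mice set directly against Acute mice gave lower values for 8 of the 9 genes, with a median log2 fold change of -0.14. 0 of the 9 passed the test (edgeR adjusted p from 0.998 to 0.999), nor did any of the 16266 genes (0%). At an unadjusted p below 0.05 it was 0 of the 9, against 4.44% of all genes (1.95% higher and 2.5% lower), and 49.4% of all genes had a log2 fold change above 0. *Arc* was lowest at -0.18 and *Egr1* was the gene above 0, at 0.04. *Btg2* was at -0.22, again without a test, and at -0.15 ± 0.08 with the mean of the 9 other genes as a covariate. Among the cell type lists, 5 of 5 striatum markers (median log2 fold change -0.35), 4 of 5 central amygdala markers (-0.17), 3 of 4 choroid plexus markers (-0.09), 4 of 5 oligodendrocyte markers (-0.07) and 5 of 5 microglia markers (-0.03) also had values below 0 in this comparison. Blood markers were above 0 for 4 of 4 genes (0.11), and the medians of the other 6 lists lay between -0.03 and 0.06. None of these markers passed the test, and their part in the values of the 10 genes was not tested. This comparison shares its mice with both others and adds no independent sample. The 9 genes also moved together between mice, so their directions are not separate observations.

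Acute mice were also set against the Water mice of their own batch. *Egr1* in Acute mice was below Water by 0.25 on the log2 scale in the first batch, where 0 of 4 mice were above the Water mean, and above Water by 0.13 in the second, with 4 of 5. *Fos* differed from Water by 0.02 in the first batch and by 0.29 in the second, and *Dusp1* by -0.01 and 0.32. In the second batch, 5 of 5 Acute mice were above the Water mean for *Fos*, *Nr4a1*, *Arc* and *Dusp1*, and in the first it was 3 of 4 for *Fos*, *Arc* and *Dusp1* and 2 of 4 for *Nr4a1*. By batch, *Nr4a1* differed from Water by -0.15 and 0.16, and *Arc* by -0.01 and 0.23. The test of the difference between batches called 0 of the 9 genes for Acute mice, with an edgeR adjusted p of 0.999 for each, and 0 of all genes (0%). For Chronic mice it called 0 of the 9 as well, and 1 of all genes (0.00615%).

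Acute 33, from the first batch, was the lowest Acute mouse in CPM for 9 of the 10 genes, all but *Ier2*. Without it, the Acute log2 fold changes were 0.25 for *Fos* (0.19 with it), 0.23 for *Dusp1* (0.18), 0.20 for *Arc* (0.14), 0.14 for *Egr2* (0.04) and 0.47 for *Btg2* (0.42). *Fosb* and *Egr1* moved from just below 0 to 0.04 and 0.03. The adjusted p of the 9 tested genes was at least 0.437 in every fit that left out 1 mouse.

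The genes varied more between mice of the same group and batch than most genes did. The biological coefficient of variation from edgeR ran from 12.9% for *Junb* to 24.9% for *Egr2*, with a median of 14.4% over the 10 genes and of 8.16% over all genes tested. In percentiles of all genes tested, *Junb* was at 72.1 and *Egr2* at 93.0, and *Btg2*, at 15.4%, was at 79.2.

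That spread was shared. Deviations of log2 CPM from the mean of each batch and group were correlated over the 28 mice for the 45 pairs of the 10 genes, which keeps the group differences out of the relation. Pearson's r was above 0 in 45 of 45 pairs, from 0.406 to 0.926, with a median of 0.748. Permuting mice within batch and group (100000 draws, 2-sided) gave an adjusted p under 0.05 over the 45 pairs for 44 of them by r and 45 of them by Spearman's rho. The exception by r was *Fosb* with *Ier2* (r = 0.406, permutation p = 0.0624, adjusted p = 0.0624, rho = 0.476, adjusted p = 0.0271). The median r was 0.815 within the first batch, 0.706 within the second, and 0.666 after the 2 mice farthest from the median of the first gene were left out of each pair. All pairs share the 28 libraries and their scaling.

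*Arc*, *Nr4a1* and *Junb* were the most tightly tied. *Nr4a1* and *Arc* reached r = 0.926 (rho = 0.863), *Junb* and *Arc* 0.911 (rho = 0.900) and *Junb* and *Nr4a1* 0.901 (rho = 0.838), each with a permutation p of 1e-05, the smallest the draws can give, and an adjusted p of 4.09e-05. They held at 0.886, 0.866 and 0.848 without the 2 farthest mice. *Arc* also stood highest against the mean of the other immediate early genes without *Btg2*, at r = 0.942, and *Ier2* lowest at 0.631.

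**Figure D3:**
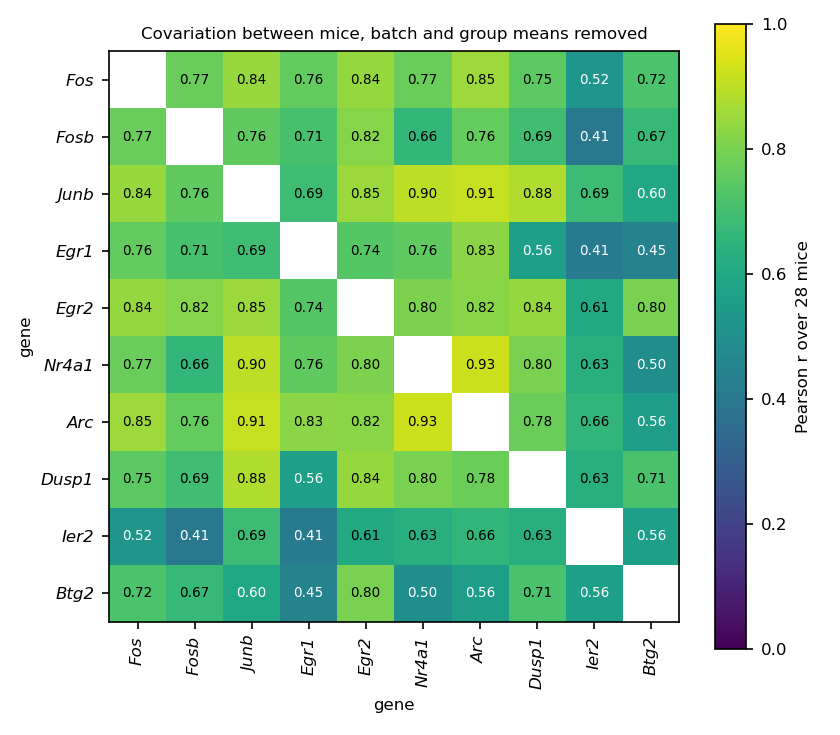
Pearson r of every pair of the 10 genes over 28 mice, on log2 CPM with batch and group means removed; both axes list the genes and the color runs from 0 to 1. The block of *Junb*, *Nr4a1* and *Arc* is brightest, at 0.90 to 0.93, and the rows of *Ier2* and *Btg2* are darkest.

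*Btg2* moved with the other genes among mice of the same group and batch, a source of variation that its choice on the group contrast did not use. Its r with the 9 others ran from 0.446 with *Egr1* (rho = 0.473, permutation p = 0.0309, adjusted p = 0.0323) to 0.800 with *Egr2* (rho = 0.858, permutation p = 1e-05, adjusted p = 4.09e-05), and 9 of 9 pairs passed. *Fos* at 0.716, *Dusp1* at 0.714 and *Fosb* at 0.669 came next, ahead of *Arc* at 0.560 and *Nr4a1* at 0.498. Against the mean of the 9 genes, each scaled to unit SD, *Btg2* had r = 0.705 and rho = 0.744, given as a description. It was 0.816 within the first batch, 0.631 within the second, and 0.656 without the 2 farthest mice. Within the Water group (10 mice) r was 0.760 and stayed at 0.672 without the 2 farthest mice, whereas within Acute and Chronic mice it was 0.755 and 0.636 and fell to 0.340 and 0.379 without them. Spearman's rho was 0.794 among the Water mice, 0.633 among the Acute mice and 0.650 among the Chronic mice.

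**Figure D4:**
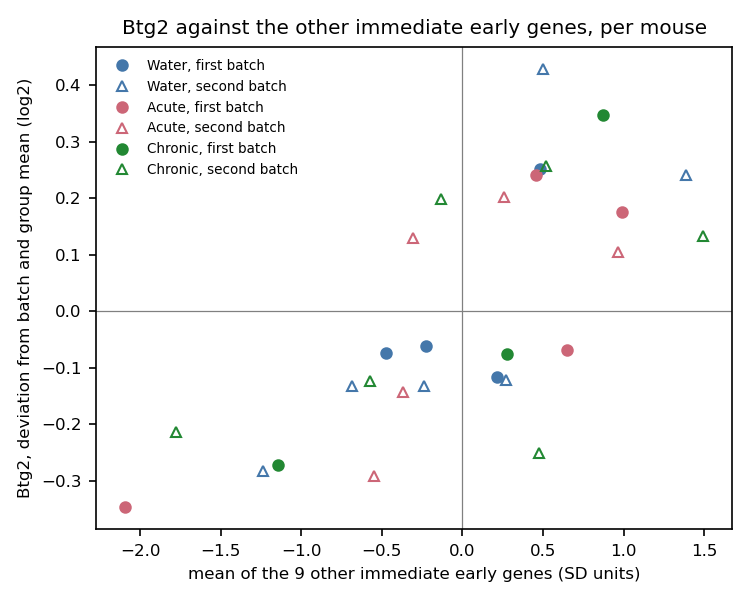
*Btg2* (y axis, log2 deviation from the mean of its batch and group) against the mean of the 9 other genes (x axis, SD units) in each of 28 mice, by group (color) and batch (symbol). The points rise together (r = 0.705), with Acute 33 at the lower left.

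A few mice set the ends of this common axis. The mean of the 9 genes was lowest in Acute 33 (-2.09 SD), Chronic 3 (-1.78), Water 4 (-1.24) and Chronic 38 (-1.15), each with 0 of 9 genes above its own batch and group mean. It was highest in Chronic 4 (1.49), Water 3 (1.39), Acute 34 (0.99) and Acute 2 (0.96), each with 9 of 9 genes above. Every drinking group and both batches appear at both ends. Without Acute 33 and Chronic 3, 37 of the 45 pairs passed, with a median r of 0.610, and the r of *Btg2* with the mean of the 9 was 0.648.

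**Figure D5:**
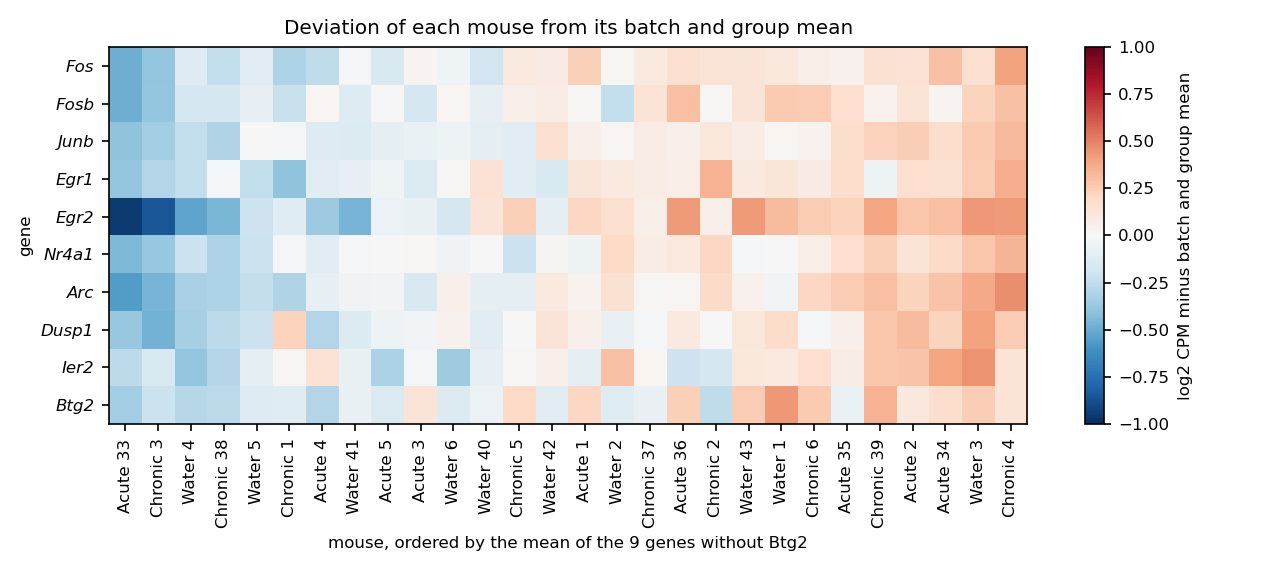
Deviation of each gene (rows) from its batch and group mean in log2 CPM (color), with the 28 mice (columns) ordered by the mean of the 9 genes without *Btg2*. Columns at the left, led by Acute 33 and Chronic 3, are blue throughout and those at the right are red throughout, and *Egr2* has the deepest colors.

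Some of the cell type marker lists and the heat shock genes moved with the same axis. The mean of 3 basolateral amygdala and pallial excitatory neuron markers (*Slc17a7*, *Rspo2* and *Neurod6*) had r = 0.643 with the mean of the 9 genes (rho = 0.663, 0.881 in the first batch, 0.402 in the second, r = 0.472 without the 2 farthest mice), and 3 of 3 markers had a positive r. Its summed level ranged from 1086 to 1662 CPM in Water mice, from 869 to 1660.4 in Acute mice and from 1005 to 1685 in Chronic mice. Astrocyte markers ran the other way (r = -0.600, rho = -0.583, -0.393 and -0.747 within the batches, -0.553 without the 2 farthest mice, 0 of 5 positive, 697 to 891 CPM over all mice), as did oligodendrocyte markers (r = -0.562, rho = -0.436, -0.805 and -0.387 within the batches, -0.329 without the 2 farthest mice, 0 of 5 positive, 1046 to 2935 CPM). The heat shock genes had r = 0.529 (rho = 0.561, 0.529 and 0.547 within the batches, 0.538 without the 2 farthest mice, 4 of 5 positive, 1986 to 2435 CPM), and the library total 0.07 (rho = 0.25). The neuron list had r = 0.476 (rho = 0.481, 0.796 and 0.217 within the batches, 0.265 without the 2 farthest mice) and its 6 genes were split. *Rbfox3*, *Snap25*, *Syt1* and *Slc17a7* lay between 0.525 and 0.693, whereas *Gad1* and *Gad2*, which encode the enzymes that make GABA, were at -0.523 and -0.591. The remaining 7 of the 12 lists had r between -0.29 and 0.25, the endothelial list among them at -0.236 (-0.779 and 0.258 within the batches). No listed gene was at 0 over all mice together, and the part of the neuron list and of those 7 lists in the covariation was not tested. *Btg2* alone had r = 0.598 with the pallial marker mean (rho = 0.631, 0.653 and 0.593 within the batches). With that mean regressed out, 37 of 45 pairs passed, the median r was 0.639 and the r of *Btg2* with the mean of the 9 was 0.523. With the astrocyte markers regressed out 38 pairs passed, with the oligodendrocyte markers 39 and with the heat shock genes 40.

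Other genes of the pathway were read from a list of 85, of which 81 were tested. 0 of the 81 passed in either comparison. In Acute mice 36 were higher and 45 lower than in Water mice, with 5 higher and 6 lower at an unadjusted p below 0.05, where 5.07% and 4.45% of all genes were. The smallest p on the higher side belonged to *Jund*, an AP-1 partner, at 0.09 (8 of 9 mice above the Water mean, edgeR adjusted p = 0.477), *Rasd1*, a small GTPase, at 0.31 (7 of 9, 0.501), and *Cnot11*, a CCR4-NOT subunit, at 0.09 (9 of 9, 0.502). On the lower side they were *Nr4a2*, a relative of *Nr4a1*, at -0.53 ± 0.20 (0 of 9, 0.462), the clock gene *Per1* at -0.14 (0 of 9, 0.457) and the kinase gene *Camk4* at -0.14 (0 of 9, 0.467). The relatives of *Btg2*, *Btg1*, *Btg3*, *Tob1* and *Tob2*, lay between -0.03 and 0.09, and the 10 CCR4-NOT subunits between -0.08 and 0.09.

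In Chronic mice 30 of the 81 were higher and 51 lower, with 3 and 9 at an unadjusted p below 0.05, against 4.81% and 5.65% of all genes. *Jund* was at 0.12 (9 of 9 mice above the Water mean, edgeR adjusted p = 0.241), the transcription factor gene *Klf4* at 0.32 (9 of 9, 0.293) and *Ier3* at 0.19 (9 of 9, 0.473). *Camk4* was at -0.22 (0 of 9, 0.181), *Crem*, a CRE-binding factor, at -0.16 (0 of 9, 0.290) and *Cnot6l*, a deadenylase, at -0.07 (2 of 9, 0.410). Among the upstream regulators, which include CREB, its coactivators and the MAP kinases, 5 of 20 were higher and 15 lower, between -0.22 and 0.07. Of all genes, 51% had a log2 fold change above 0 in that comparison. In Acute against Water mice, 4 of these 20 were higher and 16 lower, between -0.14 and 0.02, where 50.6% of all genes were above 0.

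Over the mice, the genes most like the mean of the 9 were *Egr4* (r = 0.934), *Cacnb3* (0.905), *Mllt1* (0.898), *Tmem198* (0.887), *Grasp* (0.880), *Kcnh3* (0.867), *Camta2* (0.857), *Inka2* (0.852), *Dmtn* (0.841) and *Egr3* (0.837), out of 16256 other genes tested. *Egr4* and *Egr3*, the other EGR factors, came from the list, and *Dusp6*, a MAP kinase phosphatase, ranked 17 at 0.817. The median r of the listed families was 0.73 for the EGR factors and their NAB co-repressors, 0.65 for *Nr4a2* and *Nr4a3*, 0.49 for the feedback inhibitors and 0.42 for the AP-1 partners. It was 0.03 for the CCR4-NOT subunits, -0.05 for the BTG and TOB relatives and -0.01 for all genes. Those most like *Btg2* were *Wdr13* (0.797), *2610001J05Rik* (0.772), *Smim13* (0.763), *Lztr1* (0.746) and *Vopp1* (0.745), none of them on the list.

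*Npas4*, the activity-dependent factor that needs calcium influx, was in the second batch's table alone. There it was at 18.7, 26.0 and 28.2 CPM in 6 Water mice, 24.5, 28.8 and 29.9 in 5 Acute mice and 21.4, 25.9 and 29.5 in 6 Chronic mice (lowest, median and highest). The 3 groups overlapped, and its r with the mean of the 9 genes over these 17 mice was 0.287 (rho = 0.414, 0.268 without the 2 farthest mice), with a permutation p of 0.307 (adjusted over 3 genes, 0.307). *Spry4*, a feedback inhibitor of receptor tyrosine kinase signaling found in the same table alone, had r = 0.718 (permutation p = 0.00249, adjusted p = 0.00747, rho = 0.642, adjusted p = 0.0408, r = 0.518 without the 2 farthest mice) and was at 11.6 to 14.2 CPM in the Water mice, 11.9 to 16.8 CPM in the Acute mice and 10.2 to 16.9 CPM in the Chronic mice. *Fosl1*, an AP-1 gene with a mean of 1 count per mouse, had r = -0.437 (permutation p = 0.123, adjusted p = 0.185, rho = -0.375, adjusted p = 0.182, r = -0.169 without the 2 farthest mice). Of the 10 genes, *Ier2* had the smallest r with the others in that batch, 0.565.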

How the data were processed

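Counts of 28 mice came as 2 tables, 1 per batch. The authors checked reads with FastQC 0.11.8, quantified them with Salmon 0.14.1 against GRCm38 and summarized them by gene with tximport, and the deposited values are estimated counts in whole numbers, neither normalized nor batch-adjusted. Gene names are those of GENCODE M21, the versions of *Junb* and *Ier2* differed between the tables, and tables were joined on the identifier without version. The filter kept genes whose mean count was 10 or more, and these were tested with edgeR 4.0.16 (quasi-likelihood, TMM, batch as covariate, R 4.3.3), with Benjamini-Hochberg adjustment over all of them and a threshold of 0.05. Levels are CPM with TMM scaling, and log2 CPM used a prior count of 2. Correlations used residuals from batch and group means (Python 3.11.15, scipy 1.17.1). Total counts of 20004380 to 22569562 per mouse set the counting error, and samples are separate mice. The members and gene lists were chosen with earlier results of these data known. Named genes are the 10 members, for each comparison with Water the 3 listed genes of smallest p on either side, and the genes with the highest r (10 to the mean, 5 to *Btg2*). *Npas4*, *Dusp6* and the listed genes of the second table alone were added after their values were seen. Alternatives were RLE and upper quartile scaling, no filter or a mean of 100 counts, DESeq2 1.42.0, limma-voom (limma 3.58.1), ComBat-seq (sva 3.50.0) with DESeq2, each batch alone, only the groups compared, a replicate block and each mouse left out; later alternatives left out the 2 lowest mice or regressed out marker means. In the second batch, the deviations of 16 same-numbered pairs of mice correlated from -0.35 to 0.34, so the numbers do not pair the mice. The edgeR script was tested on simulated data. The closest of 55 pairs of libraries of the same group and batch still differed by 4.23 times the counting noise, so none was a duplicate. Every column was mapped to a mouse. A gene of the basolateral amygdala and pallial marker list is not reported here, and the list was used without it.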

Additional observations from a re-analysis of the deposited data

Results flagged for a closer look

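Acute 33, an Acute mouse of the first batch, stood apart from the other 8 Acute mice for 6 of the 10 genes. On the log2 scale of CPM, its gap to the next mouse took up more of the group's range than Dixon's 95% limit for 9 values. Acute 33 was at 19.5 CPM for *Fosb* (next 27.2), 59.0 for *Junb* (77.0), 158 for *Egr1* (214), 4.12 for *Egr2* (7.55), 54.1 for *Nr4a1* (78.1) and 70.6 for *Arc* (105). The gap took from 51% to 68% of the range of log2 values, and shares of the range of CPM itself differ. In all, 30 combinations of gene and group were examined and chance marks about 1 in 20, but the genes share the same mice and moved together, so the 6 are not independent of each other.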

How the results depend on the processing

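The 9 tested genes stayed uncalled in every comparison under all alternatives and with each mouse left out (*Ier2* was below the higher filter of 100 counts, and DESeq2 gave no adjusted p to *Ier2* and *Egr2* in the comparisons with Water, except after ComBat-seq in Acute mice). Of 328 fold changes of single genes from alternatives with all mice, 309 kept their direction. Of 840 with 1 mouse left out, 781 did. The 19 that reversed lay within 0.17 of 0. In the first batch alone, Acute minus Water was -0.11 for *Junb*, -0.17 for *Egr2*, -0.13 for *Nr4a1* and -4.4e-06 for *Dusp1*, Chronic minus Water was -0.0070 for *Fos*, -0.097 for *Junb*, -0.14 for *Egr1*, -0.0075 for *Egr2*, -0.11 for *Dusp1* and -0.031 for *Btg2*, and Chronic minus Acute was 0.078 for *Fosb*, 0.0081 for *Junb* and 0.16 for *Egr2*. In the second batch alone, Acute minus Water was 0.084 for *Fosb*, 0.13 for *Egr1* and -0.0011 for *Ier2*, and Chronic minus Acute was -0.014 for *Egr1*. limma-voom gave 0.017 for *Fosb* in Acute mice, and ComBat-seq with DESeq2 gave -0.0040 for *Egr1* in Chronic mice. With 1 mouse left out, the ranges that crossed 0 were, for Acute minus Water, *Egr1* -0.064 to 0.028, *Egr2* -0.019 to 0.14, *Fosb* -0.053 to 0.042, *Ier2* -0.030 to 0.084, *Junb* -0.013 to 0.083. For Chronic minus Water they were *Arc* -0.10 to 0.012, *Dusp1* -0.020 to 0.071, *Egr1* -0.036 to 0.056, *Egr2* -0.077 to 0.081, *Fos* -0.00035 to 0.096, *Junb* -0.042 to 0.048, and for Chronic minus Acute *Egr1* -0.0097 to 0.084, *Egr2* -0.13 to 0.046, *Fosb* -0.096 to 0.0074, *Junb* -0.076 to 0.019. The causes were not tested.

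Of all genes, Acute against Water called 1 with no filter, 9 with DESeq2, 30 with ComBat-seq and DESeq2, 3 with limma-voom and 0 to 2 with each mouse left out (2 without Chronic 38, 1 without Acute 34). Chronic against Water called 0 in the first batch alone, 38 with DESeq2, 88 with ComBat-seq and DESeq2 and 2 to 6 with each mouse left out (6 without Water 3), and Chronic against Acute called 1 with no filter and 1 with limma-voom. The replicate block kept the number of called members at 0 in each comparison; 4 of 16 same-numbered pairs correlated above 0.1, and 1 of 17 mice correlated best with its own number. The covariation called 14 of 45 pairs in the first batch alone, at a median r of 0.815, and 35 to 45 under the other alternatives, and *Btg2* kept a positive r throughout. With the SD of log2 CPM in place of edgeR's coefficient of variation, the median percentile of the 10 genes was 71.5 (76.3 before).

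With 28 mice the 95% intervals of most members reached about 0.2 on the log2 scale to either side, and the threshold adjusted over all genes asks for a larger difference than those intervals do. A single collection of bulk tissue on the morning after access holds no time course and no cell types.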
